A study of Mus musculus with 24 samples.

Results

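A set of 10 genes that encode regulators of G protein signaling was followed through the striatum of R6/1 Huntington's disease mice: Rgs2, Rgs4, Rgs7, Rgs8, Rgs9, Rgs10, Rgs13, Rgs14, Rgs16 and Rgs20. They are 10 of the 21 genes with an Rgs symbol and a number, and were chosen with earlier results of these data known. Rows were matched by gene symbol, and each of the 10 had its own row among the 24340 genes of the RNA-seq tables. Hemizygous male R6/1 mice, which carry exon 1 of the human huntingtin gene with an expanded CAG repeat on a C57BL/6J background, were compared with wild type (WT) male littermates. Both genotypes received RGFP109, an inhibitor of histone deacetylases HDAC1 and HDAC3, or its vehicle, DMSO in saline. RGFP109 was given at 30 mg/kg by intraperitoneal injection on 5 days per week for 3 weeks, starting at 11 to 14 weeks of age, and the striatum of one hemisphere was taken 18 h after the last injection, at 14 to 17 weeks. The 24 mice formed 4 groups, with 5 WT-vehicle, 6 R6/1-vehicle, 6 WT-RGFP109 and 7 R6/1-RGFP109 mice. Because the transgene adds a fragment of the human gene to 2 normal mouse copies, the mouse rows could not serve as a check of the genotype labels.

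The values are FPKM, fragments scaled to transcript length and to the number of mapped fragments, and 1 FPKM per gene and group was available in each of 6 pairwise tables. Values of single mice, which the study gives outside these tables, were not used here. Spread between mice was therefore not computed, no test was made, and every ratio below is a description without an error. Sequencing depth is unknown from these values. Each group stood in 3 tables, and its values differed between them by a common factor, with median ratios between 0.962 and 0.998, so the 3 values are 1 measurement on slightly different scales. Ratios were taken inside a table. A gene was called past the fold when the absolute log2 ratio was above 0.5 and the mean of the 2 groups was at least 1 FPKM. The tissue expressed all 12 markers of striatal projection neurons used here, with Ppp1r1b (DARPP-32) at 1149 FPKM in WT-vehicle striatum, and none of 62 markers over 7 cell type or tissue lists was at 0 in any group.

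RGS proteins shorten signaling by G protein-coupled receptors. They speed the hydrolysis of GTP by the alpha subunit, so that it returns to its inactive form and rebinds the beta and gamma subunits. The R4 subfamily (Rgs2, Rgs4, Rgs8, Rgs13 and Rgs16 here) consists of small proteins that are little more than the RGS domain, and most act on Gi/o and Gq, with Rgs2 favoring Gq. The R7 subfamily (Rgs7 and Rgs9) acts on Gi/o as a complex with the beta subunit Gnb5. R12 members (Rgs10 and Rgs14) act on Gi/o, and Rgs14 also binds Ras-family proteins. Rgs20 belongs to the RZ subfamily, which prefers Gz. In striatum, the long splice form of Rgs9 is known for limiting signals through dopamine D2 and opioid receptors, and Rgs4 is known for its role in dopamine-dependent plasticity.

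In WT-vehicle striatum the listed genes ranged from 0.363 to 237 FPKM. Rgs4 was highest at 237 FPKM and Rgs9 next at 211 FPKM. They stood well above Rgs10 at 63.8, Rgs14 at 51.9, Rgs2 at 47.7 and Rgs8 at 41.0 FPKM. Rgs20 at 32.4 and Rgs7 at 30.4 FPKM followed. Rgs16 was low at 4.05 FPKM, and Rgs13, which is best known from germinal center B cells and mast cells, was barely detected at 0.363 FPKM. Whether neighbors in this order differ beyond the spread between mice was not tested.

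**Figure D1:**
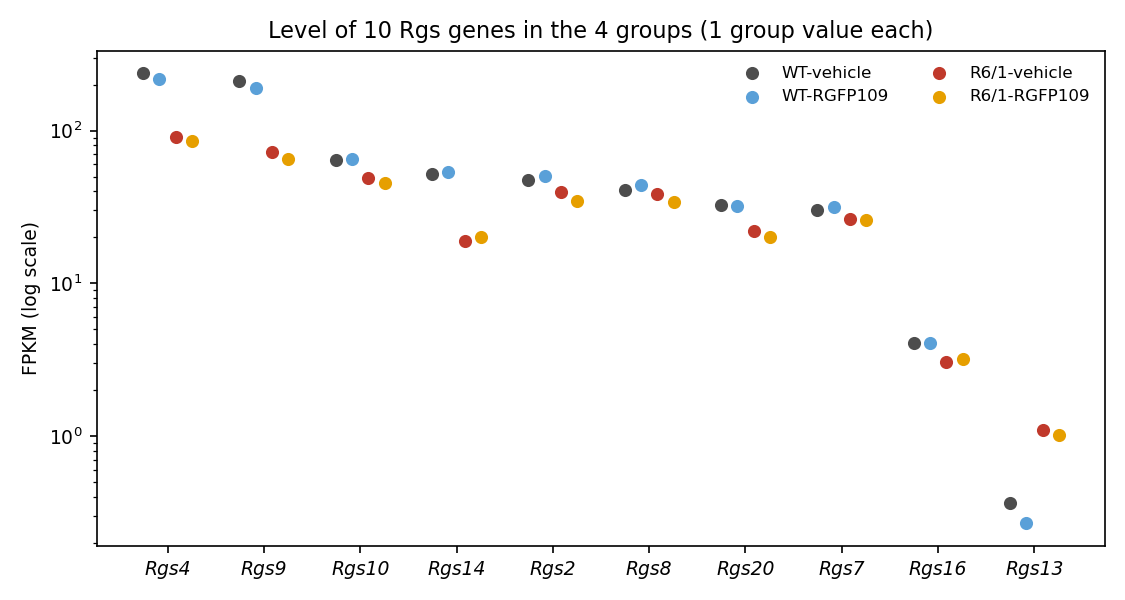
FPKM on a log axis of the 10 listed Rgs genes in the 4 groups, 1 point per group, with no error because each point is the authors' group value. All listed genes except Rgs13 sit lower in both R6/1 groups than in both WT groups, Rgs4, Rgs9 and Rgs14 by the widest margins. Rgs13 sits higher in both, and vehicle and RGFP109 points of a genotype lie close together.

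The first comparison asked how RGS transcripts differed between R6/1 and WT mice without drug. The 3 lowest ratios belonged to Rgs9, Rgs14 and Rgs4, 1 each from the R7, R12 and R4 subfamilies. Of the 9 listed genes with a mean of at least 1 FPKM, 4 were past the fold, all lower in R6/1-vehicle mice, against 13.5% of 13505 genes past the fold in either direction, 10.1% in the lower and 3.47% in the higher direction. The median log2 ratio was -0.41 for the 9 genes and -0.0077 for all genes. All 9 ratios were below 0. Among the 7 unlisted Rgs genes over 1 FPKM, 5 were below 0 and 2 above.

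Among the R4 genes, Rgs4 measured 90.8 FPKM in R6/1-vehicle and 237 FPKM in WT-vehicle striatum, a 2.61-fold lower level (log2 ratio -1.39). Only 1.18% of all genes had a lower ratio. Rgs16, an inducible regulator of Gi/o and Gq, measured 3.04 and 4.05 FPKM (log2 ratio -0.41), Rgs2 39.7 and 47.7 FPKM (-0.27), and Rgs8, which is abundant in Purkinje cells, 38.5 and 41.0 FPKM (-0.09). These 3 stayed within the fold, so Rgs4 was the listed R4 gene past the fold. Rgs13 went the other way, at 1.09 FPKM in R6/1-vehicle and 0.363 FPKM in WT-vehicle mice, 3.00-fold higher (log2 ratio 1.59), but its mean was under 1 FPKM and it was not counted.

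In the R7 subfamily, Rgs9 measured 72.5 FPKM in R6/1-vehicle against 211 FPKM in WT-vehicle striatum, 2.91-fold lower (log2 ratio -1.54), and 0.792% of genes had a lower ratio. Its relative Rgs7, which pairs with the same beta subunit, measured 26.4 and 30.4 FPKM (-0.20). Of the 2 listed R7 genes, 1 was thus past the fold. In the R12 subfamily, Rgs14 measured 19.0 FPKM in R6/1-vehicle and 51.9 FPKM in WT-vehicle striatum, 2.74-fold lower (log2 ratio -1.45). Rgs10, which is abundant in microglia as well as neurons, measured 48.6 and 63.8 FPKM (-0.39). Rgs20 of the RZ subfamily measured 21.9 and 32.4 FPKM (-0.57), just past the fold, with 8.20% of genes lower.

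To place the high and low members in the genome, the 250 bases before the annotated start of transcription are given for the 2 most abundant genes, Rgs4 and Rgs9, both lower in R6/1 mice, for Rgs2, an R4 gene within the fold, and for Rgs13, the gene with the opposite sign. The sequences are from RefSeq on GRCm38.p6 (mm10), where 8 of the 10 genes were matched, with Rgs14 and Rgs20 not matched. All 4 lie on the minus strand and are read toward the gene: Rgs4 at chr1:169747643-169747892, Rgs9 at chr11:109298182-109298431, Rgs2 at chr1:144004150-144004399 and Rgs13 at chr1:144177373-144177622. Capitals mark the letters of a CCAAT box, a TATA box or a cyclic AMP response half-site, on either strand, as spelled out after the sequences.
Rgs4: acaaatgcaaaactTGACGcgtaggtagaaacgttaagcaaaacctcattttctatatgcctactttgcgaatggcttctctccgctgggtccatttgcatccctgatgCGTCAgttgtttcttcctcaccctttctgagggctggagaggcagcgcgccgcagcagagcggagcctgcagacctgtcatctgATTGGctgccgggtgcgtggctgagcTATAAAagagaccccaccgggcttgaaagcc
Rgs9: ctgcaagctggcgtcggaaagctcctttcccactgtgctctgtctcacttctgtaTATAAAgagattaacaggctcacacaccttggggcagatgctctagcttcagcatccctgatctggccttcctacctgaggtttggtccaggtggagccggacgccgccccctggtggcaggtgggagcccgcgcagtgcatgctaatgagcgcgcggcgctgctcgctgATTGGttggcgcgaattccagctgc
Rgs2: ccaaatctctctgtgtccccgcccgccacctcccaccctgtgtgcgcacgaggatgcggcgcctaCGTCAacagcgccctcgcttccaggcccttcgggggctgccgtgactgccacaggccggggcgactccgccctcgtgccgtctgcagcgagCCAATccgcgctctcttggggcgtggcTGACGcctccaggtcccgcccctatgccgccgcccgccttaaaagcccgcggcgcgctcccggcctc
Rgs13: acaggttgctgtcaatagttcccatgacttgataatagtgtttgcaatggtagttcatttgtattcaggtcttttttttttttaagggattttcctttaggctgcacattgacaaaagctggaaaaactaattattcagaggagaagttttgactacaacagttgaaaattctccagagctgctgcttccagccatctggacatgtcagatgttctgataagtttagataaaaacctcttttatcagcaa

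Both strands were searched for the CCAAT box (CCAAT), the TATA box (TATAAA), the cyclic AMP response element (TGACGTCA) and its half-site (TGACG, which every full element contains), the AP-1 site (TGANTCA), the E-box (CACGTG) and the Egr site (GCGTGGGCG). The Rgs4 window held CCAAT letters, TATAAA with its first base 31 bases before the start, and 2 half-sites 236 and 141 bases before it. The Rgs9 window held CCAAT letters 25 bases and TATAAA 195 bases before the start. CCAAT occurred in 33.8% of 32851 promoters of this length, TATAAA in 12.4% and TGACG in 17.8%. Rgs2, with CCAAT letters and 2 half-sites (185 and 67 bases before the start), shared these letters with Rgs4. The Rgs13 window held none of the 7 motifs and 0 CpG dinucleotides, against 13 in Rgs4, 14 in Rgs9, 30 in Rgs2 and a median of 6 over all promoters, and 29.0% of promoters had at most 2. These matches describe letters in a window and are not sites or causes.

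The make-up of RGS transcripts followed from these values. Summed over all 21 genes with an Rgs symbol and a number, FPKM came to 812 in WT-vehicle and 433 in R6/1-vehicle striatum. Rgs4 and Rgs9 together held 448 FPKM, 55.2% of the sum, in WT-vehicle mice and 163 FPKM, 37.7%, in R6/1-vehicle mice. Rgs4, Rgs9 and Rgs10 kept the first 3 ranks in both groups, whereas Rgs14 went from rank 4 to rank 9. In mice given RGFP109 the share of Rgs4 and Rgs9 was 51.8% in WT and 36.5% in R6/1.

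**Figure D2:**
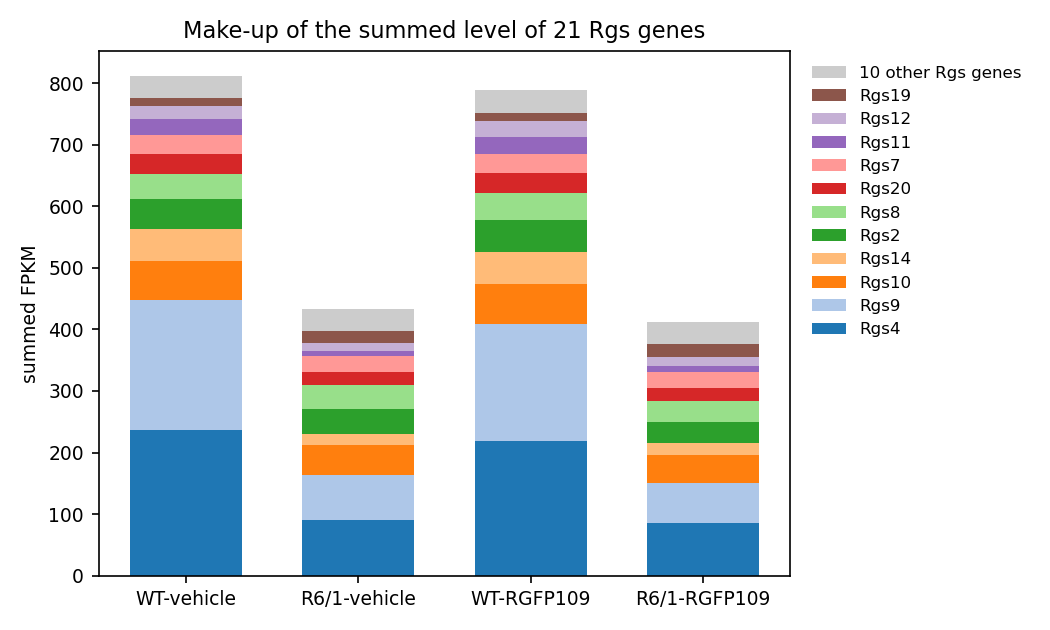
Summed FPKM of the genes named Rgs and a number, stacked by gene, in the 4 groups (bars start at 0, vehicle and RGFP109 groups each from their own genotype table, no error because values are group values). Rgs4 and Rgs9 hold 55.2% of the sum in WT-vehicle and 37.7% in R6/1-vehicle striatum, and the bar of each R6/1 group is shorter than that of each WT group.

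The same genotype comparison was available in mice given RGFP109, which are different animals from the vehicle mice, and so it served as a second reading of the genotype difference. The order at the bottom was again Rgs9, Rgs14 and Rgs4. Rgs9 measured 64.7 FPKM in R6/1-RGFP109 and 189 FPKM in WT-RGFP109 striatum (log2 ratio -1.55), Rgs4 85.5 and 219 FPKM (-1.36), and Rgs14 20.1 and 53.6 FPKM (-1.41). In all, 6 of 9 genes were past the fold, all lower, against 11.5% of 13478 genes in either direction and 8.46% in the lower direction. The additional ones were Rgs2, at 34.5 against 50.8 FPKM (-0.56), and Rgs10, at 45.6 against 64.9 FPKM (-0.51). Rgs20 was at -0.68, Rgs8 at -0.38, Rgs16 at -0.34 and Rgs7 at -0.28. Rgs13 was again higher in R6/1 mice, at 1.03 against 0.269 FPKM (log2 ratio 1.93).

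The genotype ratios had the same sign in both sets of mice for 9 of 9 listed genes over 1 FPKM. Of all genes past the fold in vehicle mice, 95.1% of 1285 lower and 89.9% of 447 higher ones kept their sign. For genes within the fold, which include 5 of the 9, this share was not computed. The difference between the ratios, RGFP109 minus vehicle mice, ran from -0.29 for Rgs2 to 0.07 for Rgs16, and 0 of 9 exceeded 0.5, compared with 3.67% of 13326 genes. Of the genes lower in R6/1-vehicle mice, 4 of 4 listed genes were past the fold again in RGFP109 mice, against 66.2% of 1285 genes overall. These shares are not like for like. Rgs4, Rgs9 and Rgs14 were below -1 in vehicle mice, as were only 373 of the 1358 lower genes there. The middle 95% of these differences over all genes ran from -0.38 to 0.46.

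**Figure D3:**
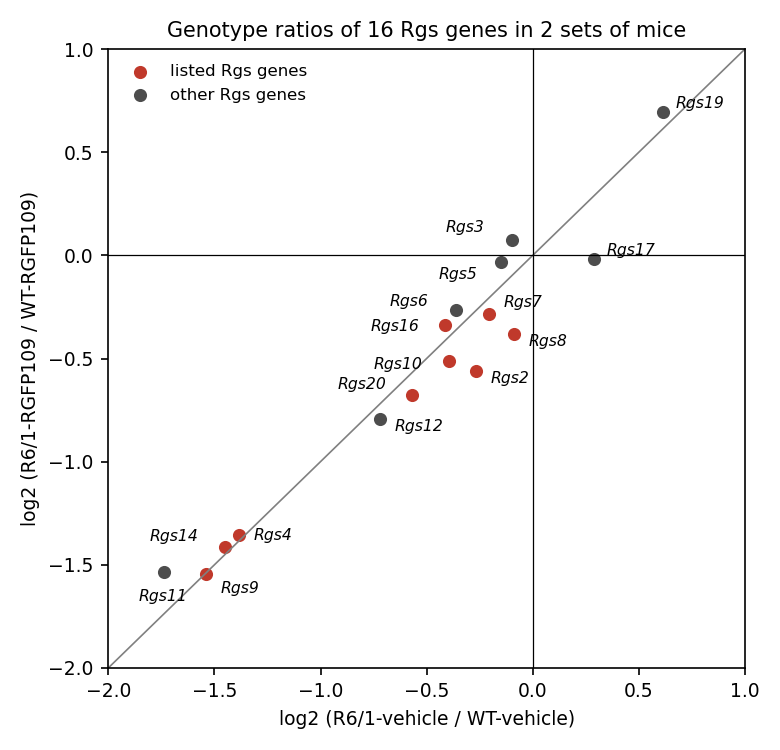
log2 ratio of R6/1 to WT in vehicle mice (x axis) against that in RGFP109 mice (y axis) for the 16 Rgs genes over 1 FPKM, with listed genes in red, other Rgs genes in gray and the line of equal ratios. Rgs4, Rgs9, Rgs14 and the unlisted Rgs11 form a group near -1.4 to -1.7, and Rgs19 lies above 0 on both axes.

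The treatment comparisons asked whether these transcripts differed with RGFP109 within a genotype. In R6/1 mice 0 of 10 listed genes were past the fold, against 1.98% of 13461 genes. The lowest ratio was that of Rgs2, at 35.5 FPKM in R6/1-RGFP109 and 41.1 FPKM in R6/1-vehicle mice (log2 ratio -0.21), lower than that of all but 3.97% of genes. Rgs8 at -0.19 and Rgs9 at -0.17 followed, Rgs4 was at -0.10 with 88.0 against 94.0 FPKM, and the highest was Rgs14 at 0.08. The 10 genes had a median of -0.10, against 0.0031 for all genes. In WT mice 0 of 9 were past the fold, against 2.87% of 13464 genes, and ratios ran from -0.16 for Rgs9 (181.9 against 203.5 FPKM) and -0.12 for Rgs4 (210.7 against 229.1 FPKM) to 0.11 for Rgs8. Rgs9 was thus among the 3 lowest ratios in both genotypes, while Rgs4 was so in WT mice only, and Rgs13 was under 1 FPKM in WT mice. For Rgs4, Rgs9 and Rgs14 the treatment ratios, from -0.17 to 0.08 over both genotypes, were small beside genotype ratios of -1.36 to -1.55, whereas for Rgs2 the R6/1 treatment ratio (-0.21) was close in size to the vehicle genotype ratio (-0.27).

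**Figure D4:**
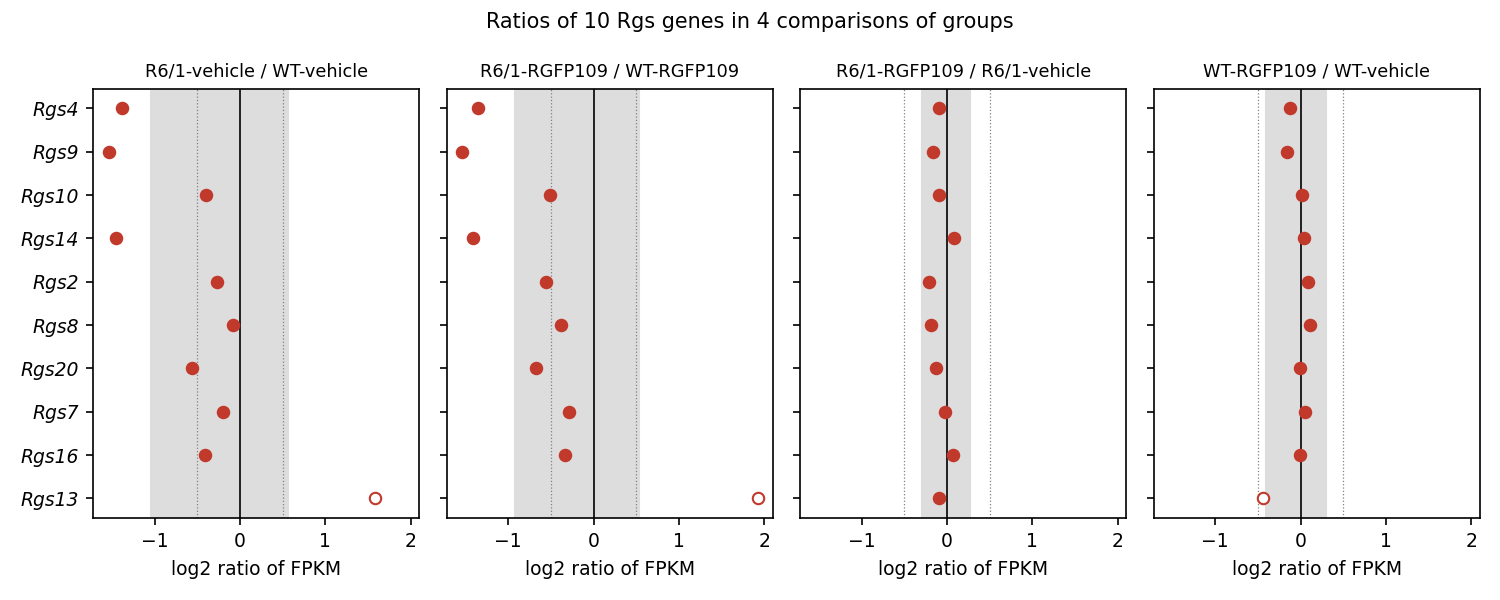
log2 ratios of the 10 listed Rgs genes in the genotype and treatment comparisons, 1 point per gene and comparison, with no error because groups have 1 value each, dotted lines at the fold of 0.5, a gray band for the middle 95% of all genes and open points for a mean under 1 FPKM. Genotype points of Rgs4, Rgs9 and Rgs14 lie between -1.36 and -1.55, and treatment points of every gene over 1 FPKM lie between -0.21 and 0.11.

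Compared with WT-vehicle striatum, R6/1-RGFP109 striatum had log2 ratios of -1.48 for Rgs4, -1.71 for Rgs9, -1.38 for Rgs14 and -0.69 for Rgs20. In that comparison, 4 of 9 genes were past the fold, against 13.3% of 13493 genes. That comparison shares the WT-vehicle group with the vehicle genotype comparison, and both are given only side by side. R6/1-vehicle over WT-RGFP109 likewise called 4 of 9, against 11.6% of 13486 genes, with Rgs14 at -1.49, Rgs9 at -1.38 and Rgs4 at -1.27.

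The family beyond the listed genes held 11 further Rgs genes, of which 7 passed 1 FPKM in the vehicle genotype comparison. Of these, 2 were lower and 1 higher. Rgs11, an R7 gene, had the lowest ratio of the Rgs genes over 1 FPKM in vehicle mice, at 7.72 FPKM in R6/1-vehicle against 25.8 FPKM in WT-vehicle striatum (log2 ratio -1.74, and -1.54 in RGFP109 mice). Rgs12, a large R12 protein with several binding domains, measured 13.3 against 21.9 FPKM (-0.72, and -0.79 in RGFP109 mice). Rgs19, an RZ gene, measured 19.5 against 12.7 FPKM (0.61, and 0.69 in RGFP109 mice). By subfamily, listed and further genes together, 1 of 6 R4 genes over 1 FPKM was lower, as were 2 of 4 R7 genes and 2 of 3 R12 genes, and of 3 RZ genes 1 was lower and 1 higher. Over all genes 10.1% were lower and 3.47% higher. Rgs6 (-0.36), Rgs5 (-0.15), Rgs3 (-0.10) and Rgs17 (0.29) stayed within the fold.

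R7 complexes depend on partners. Gnb5, their obligate beta subunit, measured 102 FPKM in R6/1-vehicle and 128 FPKM in WT-vehicle striatum (log2 ratio -0.33), Rgs7bp, which anchors R7 complexes at the membrane, 30.8 and 41.8 FPKM (-0.44), and Gpr158, an orphan receptor that binds R7 complexes, 29.4 and 38.0 FPKM (-0.37). None of these 3 partners was past the fold, against 13.5% of all genes. In RGFP109 mice Rgs7bp (-0.65) and Gpr158 (-0.58) were past it, against 11.5% of all genes. Rgs9bp and Gpr179 were under 1 FPKM.

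Genes of G protein subunits were more even. The G alpha list was not limited to the Gi/o, Gq and Gz classes named above. Of 12 G alpha genes over 1 FPKM, 0 were past the fold in vehicle mice (median -0.02), with Gna15 (-0.50) and Gna12 (-0.44) lowest and Gnai2 (0.09) and Gnaq (0.24) highest. Of 14 beta and gamma genes, 1 was lower, Gng7 (-0.74), which pairs with Golf in striatum, at 204.9 against 342.4 FPKM, and 1 higher, Gng4 (0.54), with Gng13 at -0.40 and Gng3 at 0.34. Other regulators of G proteins and receptor kinases gave 0 of 8 past the fold (median -0.13), from Adrbk2 (-0.35) and Ric8b (-0.28) to Gpsm1 (-0.01) and Grk6 (0.04). The receptors upstream differed more. Of 17 receptor genes of the striatum 12 were lower and 2 higher (median -0.996), with the adenosine receptor Adora2a at -1.98, Gpr6 at -1.52, Oprm1 at 0.51 and Htr2c at 0.65. These medians stand beside an all-gene median of -0.0077, and the counts beside 10.1% of all genes lower and 3.47% higher.

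Markers of several cell types were also lower in R6/1-vehicle than in WT-vehicle striatum. For 12 striatal projection neuron markers, summed FPKM was 3617 in WT-vehicle and 1471 in R6/1-vehicle striatum, and 8 were past the fold (median -1.05), with Penk at -2.01 and Adora2a at -1.98 lowest and Foxp1 at -0.39 and Tac1 at -0.11 highest. For this and the lists below, 10.1% of all genes were lower in vehicle mice. In bulk tissue, fewer cells of a type and less RNA per cell cannot be told apart. The 10 microglia markers were within the fold (median -0.26, summed FPKM 375 against 436), with Trem2 (-0.39) and Cx3cr1 (-0.35) lowest and Tmem119 (-0.13) among the highest. Astrocyte markers gave 2 of 8 lower (median -0.36, Slc1a2 -0.73 and Aldoc -0.57 lowest, Gfap -0.26 and Gjb6 -0.10 highest). Endothelial and pericyte markers gave 2 of 8 lower (median -0.23, Cldn5 -0.68 and Kcnj8 -0.54 lowest, Vtn -0.09 and Cdh5 0.01 highest). Oligodendrocyte markers gave 5 of 8 lower (median -0.67, Mobp -0.96 and Mbp -0.91 lowest, Mog -0.40 and Ermn -0.30 highest). Neocortex markers gave 6 of 8 lower (median -0.70, Emx1 and Slc17a7 -0.89 lowest, Lamp5 -0.42 and Rasgrf2 -0.37 highest). Choroid plexus markers gave 7 of 8 lower (median -1.04, Aqp1 -1.55 and Kcnj13 -1.29 lowest, Sostdc1 -0.71 and Clic6 -0.09 highest). In RGFP109 mice the projection neuron median was -1.18, with 9 of 12 lower against 8.46% of all genes. The oligodendrocyte and neocortex medians there were -0.12 and -0.14. Under RGFP109, choroid plexus markers summed to 42.0 FPKM against 659 in R6/1-vehicle mice and to 312.5 against 1442 FPKM in WT mice, while the oligodendrocyte and neocortex medians were 0.14 and 0.45 in R6/1 and -0.37 and -0.11 in WT. Projection neuron markers had treatment medians of -0.13 in R6/1, with 12 of 12 below 0, and -0.03 in WT, with 7 of 12 below 0. The 17 receptor genes had -0.09 and -0.01. In R6/1 mice the endothelial and pericyte median was -0.15, and the microglia and astrocyte medians were each -0.03. The part of these marker differences in the RGS values was not tested.

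Of the listed genes, 7 of 10, and 11 of 21 Rgs genes, lie on mouse chromosome 1, which holds 5.80% of the genes over 1 FPKM. The Rgs counts include genes under 1 FPKM, such as Rgs13, so these shares rest on unlike sets of genes. Rgs4 (chr1:169741477-169747642, minus strand) lies 47950 bases from Rgs5 with 0 annotated genes between them, at ratios of -1.39 and -0.15. Rgs2 (chr1:143999338-144004149, minus strand) and Rgs13 (chr1:144138667-144177372, minus strand) are 134517 bases apart, with 0 such genes between, at -0.27 and 1.59. Rgs8 (chr1:153653037-153697665, plus strand) and Rgs16 (chr1:153740353-153745468, plus strand) are 42687 bases apart, with 1 such gene within their span, at -0.09 and -0.41. Of the Rgs4 and Rgs5 pair, Rgs4 alone was past the fold. Rgs7 (chr1:175059076-175492545) and Rgs20 (chr1:4909576-5070285) are on the minus strand. Rgs9 (chr11:109225355-109298181, minus), Rgs10 (chr7:128373625-128418172, minus) and Rgs14 (chr13:55369732-55384687, plus) lie elsewhere. All are annotated as protein coding.

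Exons of 3 genes overlap others on the opposite strand. The lengths given are the largest overlap of any single pair of exons, not totals. Rgs20 shares 127 bases with Atp6v1h, a proton pump subunit at 104.5 FPKM in WT-vehicle and 118.8 FPKM in R6/1-vehicle mice, and 125 bases with pseudogene Gm17101. Rgs8 shares 70 bases with Gm29529, and Rgs16 shares 236 bases with Gm28513, both antisense. Whether counting used strand is not given in the sources used here, so reads in those stretches may belong to either gene.

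For each listed gene, the 3 genes of most similar pattern were taken from 9662 candidates over 5 FPKM, by Euclidean distance over the log2 ratios of the other 3 groups to WT-vehicle, which all share that group. For Rgs4 they were Itpka (0.0587), Ppp1r1b (0.0621) and Pcp4 (0.0678). For Rgs9 they were Rasgrp2 (0.0917), Prima1 (0.0950) and Hrk (0.130), and for Rgs14 Camk2n1 (0.0312), Rasl10a (0.0366) and Tle2 (0.0616). For the remaining genes they were Bcr, Hey1 and Tst (Rgs20), Pcdhga7, Slc4a4 and F3 (Rgs2), Ahcyl1, Slco2b1 and St3gal4 (Rgs7), Cdh22, Lzts1 and Zdhhc22 (Rgs8), Ephx2, Myt1l and Lxn (Rgs10), and Tmem14a, Mertk and 4933431E20Rik (Rgs16). With 3 ratios a small distance describes these group values and nothing more.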

How the data were processed

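Striatal RNA of 24 mice was sequenced by the authors (TruSeq libraries, HiSeq 4000), aligned to RefSeq mm10 with STAR 2.5.0b and quantified with Cufflinks 2.2.1 and Cuffdiff, per the paper's methods and the submitters' processing notes. The deposited values used here are FPKM, 1 per gene and group in 6 pairwise tables. Replicate libraries were combined by Cuffdiff in these tables. Values per library that the study gives elsewhere were not used here, so no SD was computed and no test was run. The tables also hold the authors' fold changes, test statistics, p and q values, which were not used. The log2 ratio of the 2 FPKM values of a table was computed with no pseudocount, in Python 3.11.15 with pandas 2.3.3, and calls required a mean of at least 1 FPKM and an absolute log2 ratio above 0.5. The ratio step was checked on simulated data. Gene coordinates are the loci deposited with the FPKM values. Strand, gene type and overlaps are from GENCODE M21 (GRCm38), and promoters are from RefSeq. The members, gene lists and naming rule (all Rgs genes and R7 partners, the 2 lowest and 2 highest genes of each list, the 3 nearest genes by pattern) were chosen with earlier results of these data known. One gene that the naming rule selects is not reported here. Alternatives varied the pseudocount, FPKM minimum, fold and Cuffdiff status. Depth and counting strand are not given in the sources used here.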

Additional observations from a re-analysis of the deposited data

How the results depend on the processing

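No paired analysis was possible because the deposited tables hold 1 value per group. For the same reason no replicate was left out. Values per library that the study gives outside these tables were not used here. With a minimum absolute log2 ratio of 0.25 in place of 0.5, 7 of 9 listed genes were past the fold in the vehicle genotype comparison. The same minimum gave 8 of 9 in R6/1-RGFP109 over WT-vehicle and 8 of 9 in R6/1-vehicle over WT-RGFP109, in place of 4 in each. Over all genes, 5095 of 13505, 5038 of 13493 and 4401 of 13486 passed that minimum in these comparisons. With a minimum of 1, 3 of the 6 listed genes in the RGFP109 genotype comparison were past the fold. Over all genes, the vehicle genotype count of 1826 of 13505 became 447 at a minimum of 1 and 5095 at 0.25, among the same genes. It became 4426 of 18500 with no FPKM minimum and 1047 of 9898 with a 5 FPKM minimum. In every comparison the number of genes considered changed with the FPKM minimum. The same settings gave 353, 4329, 4151 and 862 in place of 1545 for genotype in RGFP109 mice, 97, 801, 2125 and 160 in place of 267 for treatment in R6/1 mice (403 with a pseudocount of 0.1 FPKM), and 155, 1297, 2444 and 184 in place of 387 for treatment in WT mice. They gave 439, 5038, 4519 and 1030 in place of 1796 for R6/1-RGFP109 over WT-vehicle, and 389, 4401, 4152 and 855 in place of 1569 for R6/1-vehicle over WT-RGFP109. Without an FPKM minimum, 5 of 10 listed genes passed in the vehicle genotype comparison and 7 of 10 in the RGFP109 one. In each, 1 of these was higher (Rgs13). Requiring Cuffdiff status OK in place of that minimum gave the same listed counts, against 2019 of 13947 and 1778 of 14047 genes. Of 330 log2 values recomputed for the listed genes, 319 moved by less than 0.1, and the 11 that moved more were all of Rgs13. The sign changed in 1 case, the treatment ratio of Rgs16 in WT mice, from -0.0019 to 0.0012 when centered on the median of all genes. A pseudocount of 1 FPKM took the vehicle genotype ratio of Rgs13 from 1.59 to 0.62. With 1 value per group, none of these settings bears on the spread between mice.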

Other observations

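Among the remaining Rgs genes, 4 were under 1 FPKM in the vehicle genotype comparison. Rgs1, known from B cells and microglia, was at 0.237 FPKM in R6/1-vehicle and 0.126 FPKM in WT-vehicle striatum, Rgs18, known from platelets, at 0.0715 and 0.0107 FPKM, and Rgs22 at 0.470 and 0.347 FPKM. Rgs21 was listed at 0 in both. In RGFP109 mice Rgs1 was at 0.1698 FPKM in R6/1 and 0.1692 FPKM in WT, Rgs18 at 0.0356 and 0.0617 FPKM and Rgs22 at 0.474 and 0.256 FPKM, so the vehicle differences of Rgs1 and Rgs18 did not recur there. Rgs21 was at 0.0175 FPKM in R6/1-RGFP109 and listed at 0 in WT-RGFP109 mice.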
